A study of Mus musculus with 15 samples.

Results

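The genes described are 10 genes of glycolysis and lactate transport, chosen by symbol from the rows of a gene count table: Hk1, Pfkm, Aldoa, Pgk1, Eno2, Pkm, Ldha, Ldhb, Slc16a1 and Slc16a7. The table had 56748 rows, and 11 of them carried one of these symbols. The symbol Aldoa fell on 2 rows. One of them, ENSMUSG00000114515, held 7 to 47 counts per library against 14946 to 54980 for ENSMUSG00000030695, and Aldoa below means ENSMUSG00000030695. All 10 genes passed the filter on low counts, and their counts per library ran from 395 (Slc16a1) to 54980 (Aldoa).

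The RNA came from brain cortex of wild-type C57BL/6J mice. Repetitive transcranial magnetic stimulation drives cortex through the skull with repeated magnetic pulses, here given in theta-rhythm bursts. Of the 15 mice, 5 had received intermittent theta-burst stimulation (iTBS), 5 continuous theta-burst stimulation (cTBS) and 5 sham stimulation, each in 1 session, and tissue was taken 3 hours later. Titles of the samples say somatosensory cortex, while the design text says sensorimotor cortex; age and sex of the mice are not used here. Each library is 1 animal, and the tissue is a mix of cell types, so fewer cells of a type and less RNA per cell cannot be told apart.

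Glycolysis splits glucose into pyruvate in the cytosol and yields ATP without oxygen. Lactate dehydrogenase interconverts pyruvate and lactate, and monocarboxylate transporters of the SLC16 family carry lactate across cell membranes. In brain, astrocytes are held to be more glycolytic than neurons, and a proposed shuttle passes lactate from glia to neurons during activity. LDHA subunits favour lactate formation and LDHB subunits lactate use. MCT1 (Slc16a1) is known from blood vessel endothelium, oligodendrocytes and astrocytes, and MCT2 (Slc16a7) is the high-affinity transporter of neurons.

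Total counts ran from 15385070 to 37929975 in iTBS, from 35545632 to 43770223 in cTBS and from 18484169 to 47807723 in sham libraries. All 8 neuron markers were detected in every library, with summed levels of 7661 to 8820 CPM (counts scaled to the library size) in iTBS, 7947 to 9504 in cTBS and 7390 to 9510 in sham. Libraries differed widely in 10 noncoding RNAs that stay in the nucleus: their summed level was 6135 to 16093 CPM in iTBS, 2789 to 7670 CPM in cTBS and 3924 to 16686 CPM in sham. Ttr, a choroid plexus transcript, was at 232 CPM in cTBS 4, 234 CPM in sham 2 and 248.6 CPM in sham 5, and at no more than 64.1 CPM in the other libraries. Summed striatal projection neuron markers ran from 557 to 1631 CPM in iTBS, from 517 to 1548 CPM in cTBS and from 368 to 1293 CPM in sham.

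Per kilobase of exon, Aldoa, which encodes the aldolase that splits fructose bisphosphate, had the highest level of the 10 genes at 361 ± 46.6 CPM per kb (SD, n = 15, all groups). Ldhb followed at 181 ± 20.8 CPM per kb. Eno2, the enolase of neurons, was at 166 ± 17.1 CPM per kb, and Pkm, the pyruvate kinase gene of the last ATP-yielding step, at 157 ± 15.7 CPM per kb. Ldhb, Eno2 and Pkm overlapped over the libraries, whereas the lowest Aldoa level, 288 CPM per kb, lay above the highest Ldhb level, 224 CPM per kb. Pgk1, the phosphoglycerate kinase of the first ATP-yielding step, was at 107 ± 10.9 CPM per kb. Pfkm, the muscle-type subunit of phosphofructokinase at the committed step, was at 94.3 ± 6.65 CPM per kb and overlapped with Pgk1.

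Ldha was at 51.2 ± 5.75 CPM per kb and Hk1, the hexokinase that traps glucose in neurons and other cells, at 39.98 ± 3.59 CPM per kb, with overlapping ranges. The lactate transporters were lowest: Slc16a7 was at 9.33 ± 0.488 CPM per kb and Slc16a1 at 6.44 ± 0.762 CPM per kb, and their ranges did not overlap (8.62 to 10.1 and 5.34 to 7.63 CPM per kb). Lengths are the union of annotated exons in GENCODE M21 and do not allow for unspliced RNA, so this order is approximate.

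Among enzymes with a second gene for the same step, levels per kilobase favoured the listed member over the 1 gene set against it below in every library. Aldoa over Aldoc, the aldolase gene of astrocytes, ran from 1.88 to 2.87 in iTBS, from 2.29 to 3.18 in cTBS and from 2.17 to 2.83 in sham libraries. Eno2 over Eno1, the ubiquitous enolase, ran from 1.37 to 1.53 in iTBS, from 1.35 to 1.44 in cTBS and from 1.31 to 1.45 in sham libraries. Eno1 and Eno1b are near-identical in sequence, so the Eno1 level is uncertain. Pfkm over Pfkp, the platelet-type phosphofructokinase, ran from 3.97 to 5.07 in iTBS, from 4.82 to 5.63 in cTBS and from 3.93 to 5.21 in sham libraries. Hk1 over Hk2 lay between 48.9 and 77.7 in the 15 libraries. Ldhb over Ldha averaged 3.55 ± 0.226 in iTBS, 3.64 ± 0.0981 in cTBS and 3.46 ± 0.291 in sham (SD, n = 5 each), and the 3 groups overlapped. The size of these ratios depends on the exon lengths used and is approximate. Pfkm had 3340 exonic bases and Pfkp 13401, and their mean levels not divided by length were 315 and 269.5 CPM over all libraries. Ldhb had 1570 exonic bases and Ldha 3310, with mean levels of 284 and 169 CPM.

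Start regions are shown for Pgk1, Ldhb, Eno2 and Slc16a1, which have a single start in the RefSeq table and are also the 4 genes with an unadjusted p under 0.05 in cTBS against sham. Each is the 250 bases before the start on the gene's strand, in RefSeq's GRCm38.p6, an earlier build than that of the counts. Capitals mark ACGTG or GCGTG on either strand, the core letters bound by hypoxia-inducible factors, which may overlap one another. Pgk1 lies on chrX:106186850-106187099 (plus strand), Ldhb on chr6:142507958-142508207 (minus strand), Eno2 on chr6:124769674-124769923 (minus strand) and Slc16a1 on chr3:104638414-104638663 (plus strand).
Pgk1: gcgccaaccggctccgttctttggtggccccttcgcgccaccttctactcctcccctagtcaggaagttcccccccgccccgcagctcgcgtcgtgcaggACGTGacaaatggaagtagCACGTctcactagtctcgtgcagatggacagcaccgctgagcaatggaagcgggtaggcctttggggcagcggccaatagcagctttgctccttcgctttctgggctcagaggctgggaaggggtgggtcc
Ldhb: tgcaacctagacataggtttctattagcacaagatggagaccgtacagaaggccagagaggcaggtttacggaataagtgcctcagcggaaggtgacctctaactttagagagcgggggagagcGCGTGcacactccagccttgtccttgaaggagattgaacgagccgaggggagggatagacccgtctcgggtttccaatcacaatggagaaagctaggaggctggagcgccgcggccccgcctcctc
Eno2: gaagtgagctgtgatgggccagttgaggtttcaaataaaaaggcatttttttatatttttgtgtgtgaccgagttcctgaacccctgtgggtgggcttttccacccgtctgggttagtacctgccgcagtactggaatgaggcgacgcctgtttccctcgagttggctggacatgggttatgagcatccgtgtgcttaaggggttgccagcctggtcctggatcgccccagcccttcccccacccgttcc
Slc16a1: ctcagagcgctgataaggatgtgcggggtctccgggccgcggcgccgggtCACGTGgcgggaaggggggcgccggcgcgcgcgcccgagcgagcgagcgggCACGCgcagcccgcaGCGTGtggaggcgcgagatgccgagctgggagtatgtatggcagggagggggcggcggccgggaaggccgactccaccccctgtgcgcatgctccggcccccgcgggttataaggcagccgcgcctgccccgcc

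Pgk1 held 2 matches to ACGTG, Ldhb 1 to GCGTG, Slc16a1 2 to each and Eno2 0. Of the 10 genes, 9 matched at least 1 start region, 17 in all, and 8 of the 9 held a match in at least 1 region. Either motif was found in 70.6% of the 17 regions and in 38.6% of all 32851 regions of this length in the table. Of the 17 regions, 1 pair of Aldoa and 1 pair of Pfkm overlap and can count the same match more than once. Genes with several starts have more regions in which to hold a match. The share of all genes with a match in at least 1 region was not computed, so the 8 of 9 has no background. A match is a description of letters and not of binding.

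**Figure D1:**
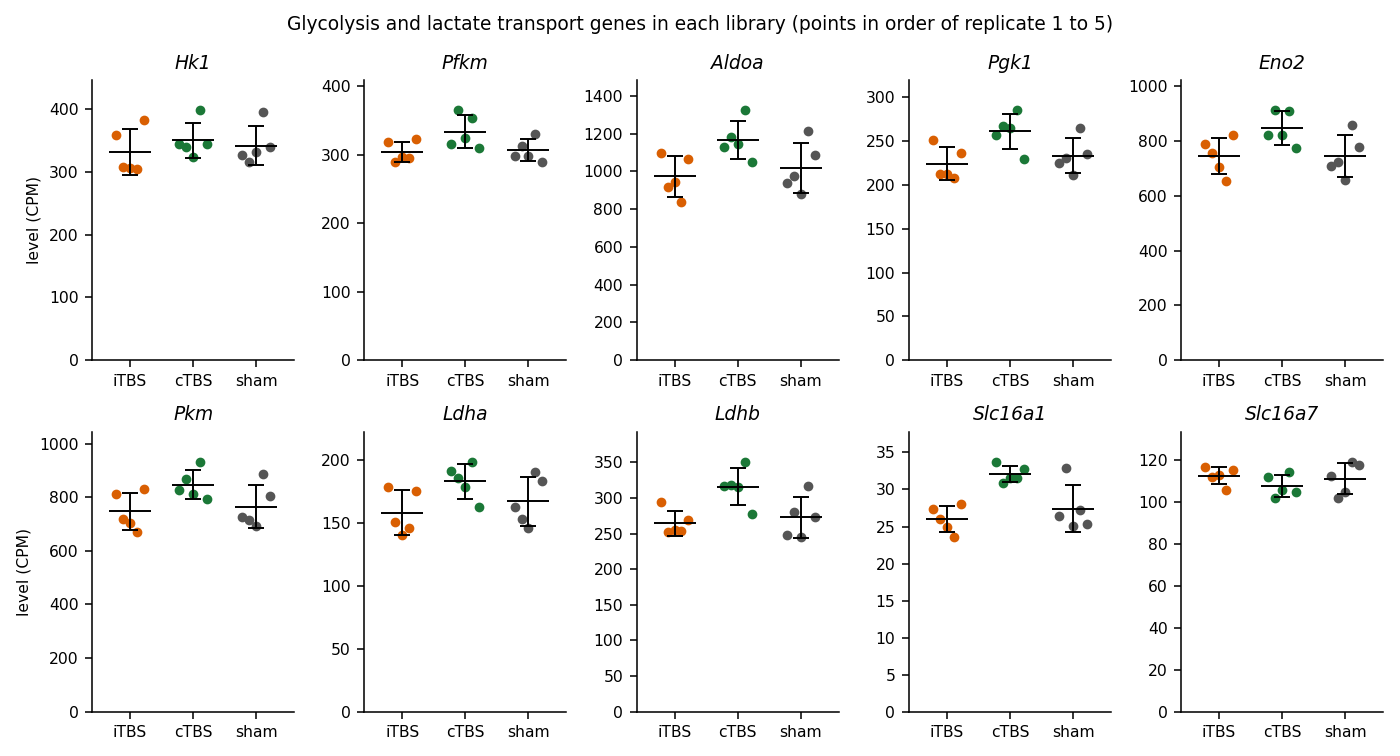
Level of each of the 10 genes in CPM (vertical axes, from 0) in each library, in the order iTBS, cTBS, sham; points are libraries, and bars are the mean ± SD of 5. For Slc16a1 the 5 cTBS libraries sit between 30.9 and 33.8 CPM, above all 5 iTBS libraries; the other 9 genes overlap between all groups.

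The first comparison, iTBS against sham, addresses whether the intermittent protocol left a difference in these genes at 3 hours. The 10 log2 fold changes lay between -0.08 and 0.02, with 2 above 0 (49.5% of tested genes lay above 0) and a median of -0.043, against -0.00097 over all tested genes. By the quasi-likelihood test of edgeR with Benjamini-Hochberg adjustment over 22998 genes, 0 of the 10 genes passed (threshold 0.05, smallest adjusted p = 1.00), on a background of 0% of tested genes. At an unadjusted p under 0.05 there were 0 of the 10, against 1.93% of tested genes (0.952% higher and 0.974% lower), and DESeq2 and limma-trend also called 0.

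Of the enzymes, Aldoa was at 973 ± 108 CPM in iTBS and 1018 ± 132 CPM in sham (log2 fold change -0.07 ± 0.10, SE). Ldha was at 158 ± 17.5 CPM in iTBS and 167 ± 19.2 CPM in sham, the fold change furthest below 0 at -0.08 ± 0.09, with a 95% interval from -0.26 to 0.11. Eno2 was at 745.5 ± 66.3 CPM in iTBS and 745.0 ± 76.4 CPM in sham, an interval from -0.18 to 0.18. Of the transporters, Slc16a1 was at 26.0 ± 1.80 CPM in iTBS and 27.4 ± 3.17 CPM in sham, and Slc16a7 at 113 ± 4.17 CPM in iTBS and 111 ± 7.51 CPM in sham. Every one of the 10 overlapped between the groups, where 0.243% of tested genes were higher and 0.209% lower without overlap. The lowest bound of the 10 intervals was -0.27 (Aldoa) and the highest 0.18 (Eno2) on the log2 scale. Sham 4 weighed on the direction: without it 8 of the 10 fold changes lay above 0, with a median of 0.030.

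None of 15 other glycolytic enzymes tested passed in iTBS against sham; 13 had a fold change below 0 and 2 above, with a median of -0.056. The smallest p in this list was for Pgam2, a muscle form of phosphoglycerate mutase, at 2.39 ± 0.190 CPM in iTBS and 3.13 ± 0.323 CPM in sham (log2 fold change -0.39 ± 0.16), without overlap. Slc2a1, the GLUT1 glucose transporter of the blood-brain barrier and astrocytes, was at 57.2 ± 5.96 CPM in iTBS and 64.6 ± 9.05 CPM in sham (-0.18 ± 0.10). The smallest p of their lists also fell to Slc16a8, a retinal monocarboxylate transporter (0.28 ± 0.22), Tigar, a brake on glycolysis (0.06 ± 0.08), Dld, a subunit of pyruvate dehydrogenase (-0.10 ± 0.07), and Ugp2, which supplies glycogen synthesis (-0.05 ± 0.07). None of them passed.

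The second comparison, cTBS against sham, asks the same of the continuous protocol. Most of these genes were at higher mean levels in cTBS than in sham, by up to 1.17-fold, but none of the differences passed the test. The fold changes of 9 of the 10 genes lay above 0, against 46.5% of tested genes, with a median of 0.16, against -0.023 over all tested genes. By edgeR none of the 10 genes passed (smallest adjusted p = 0.144), on a background of 0%. At an unadjusted p under 0.05 there were 4 of the 10 (Slc16a1, Ldhb, Eno2 and Pgk1), all higher, against 6.8% of tested genes higher, 17.6% lower and 24.4% in either direction. DESeq2 called 0 of the 10, with 0.574% of tested genes called, and limma-trend called 0. All 10 overlapped between the groups, where 0.626% of tested genes were higher and 0.713% lower without overlap. Markers of several cell types lay the same way in cTBS against sham. Of the oligodendrocyte markers 8 of 8 had a log2 fold change above 0 (median 0.23), with summed levels of 2392 to 3839 CPM in cTBS and 2240 to 3245 CPM in sham. Of the microglia markers 7 of 7 lay above 0 (median 0.16; 226 to 276.5 CPM in cTBS and 210.0 to 254 CPM in sham), and of the astrocyte markers 7 of 8 (median 0.12; 4421 to 6437 CPM in cTBS and 4616 to 5865 CPM in sham). None of these glial markers was at 0 in any library. Striatal projection neuron markers lay further the same way (8 of 8 above 0, median 0.67), and neuron markers less far (7 of 8, median 0.07). The other way lay 5 of 7 endothelial, 6 of 6 thalamic neuron and 6 of 7 choroid plexus markers. Of all these markers 0 passed the test, and their part in the values of the 10 genes was not tested.

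Slc16a1 had the smallest p of the 10. Its level was 33.8, 30.9, 31.5, 31.6 and 32.7 CPM in cTBS 1 to 5, and 26.4, 32.9, 25.1, 27.3 and 25.4 CPM in sham 1 to 5. The groups overlapped through sham 2 alone, which lay above 4 of the cTBS libraries, and the other sham libraries lay below all of cTBS. The means were 32.1 ± 1.14 CPM in cTBS and 27.4 ± 3.17 CPM in sham (log2 fold change 0.23 ± 0.07, SE, edgeR adjusted p = 0.144). Sham 2 alone also stood apart in thalamic neuron markers, at 4.77 on the mean log2 CPM scale, against 2.91 to 3.25 in the other 14 libraries; their part in the result was not tested. A fit without sham 2 gave 0.30 (edgeR adjusted p = 0.181), and a larger value follows from leaving out the highest sham library.

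Slc16a7, the other transporter, was at 112, 102, 106, 115 and 105 CPM in cTBS 1 to 5, and at 112, 102, 105, 119 and 117 CPM in sham 1 to 5. The groups overlapped over nearly their whole range (log2 fold change -0.05 ± 0.06, with an interval from -0.16 to 0.07).

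Ldhb was at 317, 319, 316, 351 and 277 CPM in cTBS 1 to 5, and at 248, 280, 246, 316 and 273 CPM in sham 1 to 5. Sham 4 lay among the cTBS libraries and cTBS 5 among the sham libraries, so the groups overlapped (log2 fold change 0.21 ± 0.08, edgeR adjusted p = 0.146). Ldha, its partner subunit, was at 191, 186, 178, 199 and 162 CPM in cTBS 1 to 5, and at 163, 153, 146, 190 and 183 CPM in sham 1 to 5 (0.13 ± 0.09, edgeR adjusted p = 0.347). It overlapped more widely, with sham 1, sham 4 and sham 5 inside the cTBS range.

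Aldoa was at 1128, 1182, 1144, 1323 and 1050 CPM in cTBS 1 to 5, and at 939, 978, 878, 1211 and 1084 CPM in sham 1 to 5 (0.20 ± 0.10). Eno2 averaged 848 ± 60.8 CPM in cTBS and 745.0 ± 76.4 CPM in sham (0.19 ± 0.08). Pgk1 averaged 261 ± 20.2 CPM in cTBS and 233 ± 19.7 CPM in sham (0.16 ± 0.08). Sham 4 had the highest level of the sham group for Hk1, Pfkm, Aldoa, Pgk1, Eno2, Pkm, Ldha, Ldhb and Slc16a7. Pkm (0.15 ± 0.08), Pfkm (0.12 ± 0.06) and Hk1 (0.03 ± 0.08) had smaller fold changes.

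Without sham 4, edgeR called 7 of the 10 genes higher in cTBS than in sham (Pfkm, Aldoa, Pgk1, Eno2, Pkm, Ldhb and Slc16a1, adjusted p from 0.0186 to 0.0433), when 9.12% of tested genes were called higher and 24.4% in either direction. Without each of the other 14 libraries in turn, 0 of the 10 were called, with at most 0.00426% of tested genes (without iTBS 1). In sham 4 the nuclear RNAs were lower than in any other sham library, at 6.67 on the mean log2 CPM scale, against 7.78 to 8.53. Its total counts were the highest of all libraries, at 47807723, against 18484169 to 30697296 in the other sham libraries. The part of the nuclear RNAs and of depth in these calls was not tested.

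**Figure D2:**
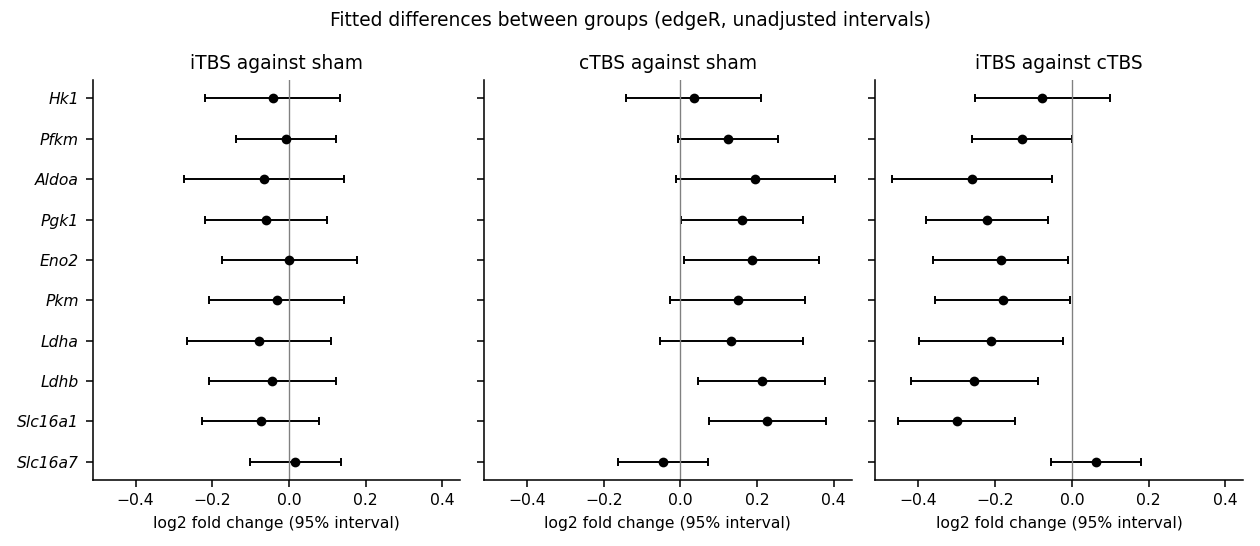
Log2 fold changes of the 10 genes (horizontal axes) with 95% intervals from edgeR, not adjusted for multiple tests, for iTBS against sham, cTBS against sham and iTBS against cTBS. Intervals for iTBS against sham all span 0, and for iTBS against cTBS 8 of the 10 lie below 0; no gene passed after adjustment.

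Other glycolytic enzymes mostly lay the same way in cTBS against sham, with 10 of 15 fold changes above 0, 5 below and a median of 0.10, and 0 passed. At an unadjusted p under 0.05 by edgeR, 3 were higher and 2 lower, against 6.8% of tested genes higher and 17.6% lower. Hkdc1, a hexokinase-like gene, had the smallest p at 10.6 ± 1.64 CPM in cTBS and 12.8 ± 1.25 CPM in sham (log2 fold change -0.27 ± 0.10). Of 7 genes for pyruvate entry into mitochondria, 6 lay above 0; Pdhb, a subunit of pyruvate dehydrogenase, was at 92.2 ± 6.40 CPM in cTBS and 82.4 ± 4.10 CPM in sham (0.16 ± 0.06, edgeR adjusted p = 0.144). Of 6 glycogen genes, 5 lay above 0, and Pygb, the brain glycogen phosphorylase, was at 133 ± 7.37 CPM in cTBS and 118 ± 7.12 CPM in sham (0.17 ± 0.06, edgeR adjusted p = 0.145).

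Slc2a1 was at 55.8 ± 5.49 CPM in cTBS and 64.6 ± 9.05 CPM in sham (-0.21 ± 0.10), and 5 of 7 endothelial markers also lay below 0 in cTBS against sham. Summed endothelial markers were 113 to 155 CPM in cTBS and 133 to 157 CPM in sham. In iTBS against sham, where Slc2a1 was at -0.18 ± 0.10, 6 of 7 endothelial markers lay above 0 and 1 below. The part of these markers in the Slc2a1 values was not tested. Pfkfb3, which makes the activator of phosphofructokinase, was at 40.7 ± 5.76 CPM in cTBS and 48.1 ± 6.83 CPM in sham (-0.25 ± 0.11). Bsg, the chaperone that brings MCT1 to the membrane, was higher on average, at 246 ± 24.7 CPM in cTBS and 221 ± 24.0 CPM in sham (0.16 ± 0.09). None of these passed.

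The third comparison sets iTBS against cTBS, with no sham libraries in the difference. Of the 10 genes, 9 had lower mean levels in iTBS than in cTBS, with a median log2 fold change of -0.20, against 0.027 over all tested genes, and 53.9% of tested genes lay above 0. By edgeR 0 of the 10 passed (smallest adjusted p = 0.0838), on a background of 0%. At an unadjusted p under 0.05 there were 8 of the 10, all lower, against 10.6% of tested genes lower, 20% higher and 30.6% in either direction. DESeq2 called 3 of the 10 lower (Slc16a1 with adjusted p = 0.0131, Ldhb with 0.0299 and Pgk1 with 0.0428), when it called 4.11% of tested genes lower and 11.4% in either direction; limma-trend called 0. The markers of glia again lay the same way: 8 of 8 oligodendrocyte markers (median -0.28; summed levels 1978 to 2959 CPM in iTBS and 2392 to 3839 CPM in cTBS), 8 of 8 astrocyte markers (median -0.14; 4238 to 6665 CPM in iTBS and 4421 to 6437 CPM in cTBS) and 6 of 7 microglia markers (median -0.19; 215 to 260 CPM in iTBS and 226 to 276.5 CPM in cTBS) had a fold change below 0. Neuron markers (8 of 8, median -0.07) and striatal projection neuron markers (8 of 8, median -0.46) also lay below 0. Choroid plexus (6 of 7) and thalamic neuron markers (5 of 6) mostly did so too. Endothelial markers went the other way, with 7 of 7 above 0 (median 0.17). By edgeR 0 of all these markers passed, and their part in the values of the 10 genes was not tested.

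Slc16a1 was at 27.4, 26.1, 25.0, 23.6 and 28.1 CPM in iTBS 1 to 5, and at 33.8, 30.9, 31.5, 31.6 and 32.7 CPM in cTBS 1 to 5. All iTBS libraries lay below all cTBS libraries, as in 1.7% of tested genes; 2.22% lay above without overlap. Each of the other 9 genes overlapped between iTBS and cTBS. The log2 fold change was -0.30 ± 0.07 (SE, edgeR adjusted p = 0.0838), and leaving out each library in turn gave -0.37 to -0.27.

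Slc16a7 was at 117, 112, 113, 106 and 115 CPM in iTBS 1 to 5, and at 112, 102, 106, 115 and 105 CPM in cTBS 1 to 5 (0.06 ± 0.06, with an interval from -0.05 to 0.18). The ratio of Slc16a7 to Slc16a1 within a library does not depend on the scaling between libraries. Per kilobase it was 1.59, 1.60, 1.69, 1.67 and 1.53 in iTBS 1 to 5, and 1.24, 1.24, 1.25, 1.36 and 1.20 in cTBS 1 to 5. The 2 protocols did not overlap in this ratio. Slc16a1 alone did not overlap between them either, so the ratio is not a separate result. The share of other gene pairs without overlap in their ratio was not computed. In sham 1 to 5 it was 1.59, 1.16, 1.56, 1.63 and 1.73, so that 3 sham libraries lay within the iTBS range, sham 5 above it and sham 2 below all cTBS libraries.

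**Figure D3:**
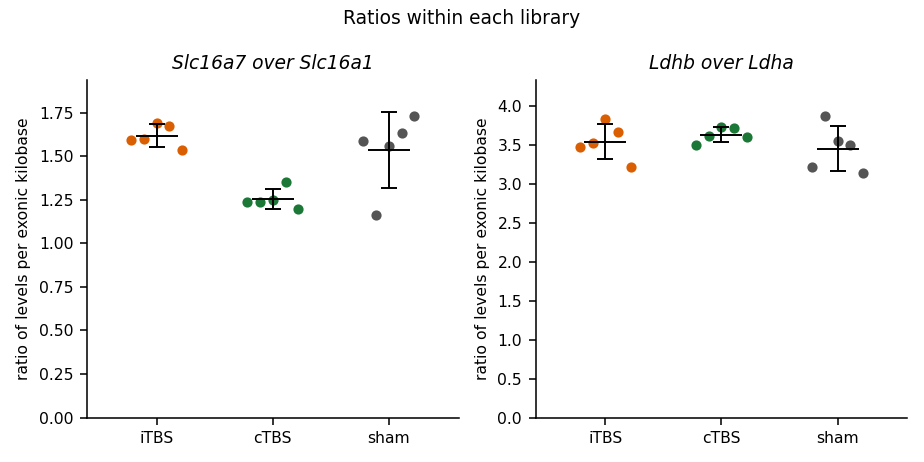
Ratios within each library of levels per exonic kilobase (vertical axes, from 0), Slc16a7 over Slc16a1 and Ldhb over Ldha, in the order iTBS, cTBS, sham; points are libraries, and bars are the mean ± SD of 5. The transporter ratio lies between 1.53 and 1.69 in iTBS and between 1.20 and 1.36 in cTBS, whereas the lactate dehydrogenase ratio overlaps between all groups.

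Ldhb was at 294, 252, 255, 254 and 269 CPM in iTBS 1 to 5, against 317, 319, 316, 351 and 277 CPM in cTBS 1 to 5 (-0.26 ± 0.08, edgeR adjusted p = 0.0838). The groups overlapped through iTBS 1, which lay above cTBS 5. Aldoa was at 1097, 916, 945, 838 and 1067 CPM in iTBS 1 to 5, against 1128, 1182, 1144, 1323 and 1050 CPM in cTBS 1 to 5 (-0.26 ± 0.10, edgeR adjusted p = 0.102). Here too cTBS 5 lay below the 2 highest iTBS libraries. Pgk1 averaged 224 ± 18.8 CPM in iTBS and 261 ± 20.2 CPM in cTBS (-0.22 ± 0.08), and Ldha 158 ± 17.5 CPM in iTBS and 183 ± 13.8 CPM in cTBS (-0.21 ± 0.09). Eno2 (-0.19 ± 0.08), Pkm (-0.18 ± 0.08), Pfkm (-0.13 ± 0.06) and Hk1 (-0.08 ± 0.08) followed.

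Calls in this comparison moved with single libraries. EdgeR called 5 of the 10 lower without iTBS 1 (Aldoa, Pgk1, Ldha, Ldhb and Slc16a1, with 19.1% of tested genes called, 8.59% lower), 3 without cTBS 5 (Pgk1, Ldhb and Slc16a1, with 14.4%, 4.05% lower) and 4 without sham 4 (Aldoa, Pgk1, Ldhb and Slc16a1, with 15.5%, 5.31% lower). Without each of the other 12 libraries it called 0. The nuclear RNAs were at 7.26 on the mean log2 CPM scale in iTBS 1, the lowest of iTBS (up to 8.40). In cTBS 5 they were at 7.55, the highest of cTBS (from 6.18), and in sham 4 at 6.67, the lowest of sham. Sham 4 is in neither group of this comparison and enters it only through the shared estimate of spread, the filter and the scaling. By total counts, iTBS 1 was the highest of iTBS (37929975) and sham 4 the highest of all libraries (47807723). In cTBS 5 total counts were 36664454, inside the cTBS range of 35545632 to 43770223. The part of the nuclear RNAs and of depth in these calls was not tested.

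Of 15 other glycolytic enzymes, 11 had a fold change below 0 in iTBS against cTBS, with a median of -0.17, and 6 had an unadjusted p under 0.05, all lower; 0 passed. Bpgm, which makes 2,3-bisphosphoglycerate, had the smallest p at 31.0 ± 4.62 CPM in iTBS and 38.1 ± 2.09 CPM in cTBS (log2 fold change -0.29 ± 0.09, edgeR adjusted p = 0.0839). Pygb was at 116 ± 7.997 CPM in iTBS and 133 ± 7.37 CPM in cTBS (-0.19 ± 0.06, edgeR adjusted p = 0.0839). Dld was at 73.1 ± 5.50 CPM in iTBS and 84.2 ± 5.14 CPM in cTBS (-0.20 ± 0.07, edgeR adjusted p = 0.0843). Hif1a, the oxygen-sensitive factor that drives glycolytic genes, was at 56.7 ± 4.78 CPM in iTBS and 64.0 ± 5.61 CPM in cTBS (-0.17 ± 0.07, edgeR adjusted p = 0.119). Slc16a6, a further monocarboxylate transporter family gene (0.21 ± 0.11), and Slc2a4, the insulin-regulated glucose transporter at under 1 CPM in both groups (-0.43 ± 0.28), had the smallest p of their lists.

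The enzymes varied together over the libraries. Over deviations from group means in 15 libraries, 35 of 45 pairs of the 10 genes were correlated with an adjusted permutation p under 0.05 (adjusted over the 45 pairs), and the median Pearson r was 0.75. Over all 49128828 pairs of the 9913 genes of at least 10 CPM the median r was 0.11; 6.97% of these pairs had an r above 0.7, as had 57.8% of the 45. The closest pair was Aldoa and Pkm (Pearson r = 0.97, permutation p = 1e-05, the smallest that 100000 permutations can give, adjusted p = 5.62e-05; Spearman rho = 0.92, permutation p = 2e-05, adjusted p = 0.00018). With the 2 libraries of most extreme Aldoa left out, r was 0.95. Pgk1 and Ldhb followed the same course (r = 0.95, permutation p = 1e-05, adjusted p = 5.62e-05; rho = 0.91, permutation p = 1e-05, adjusted p = 0.00015; r = 0.91 without the 2 farthest libraries).

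Slc16a1 was less closely tied to the others, by the size of r alone. Its r with the other 9 genes ran from -0.07 with Slc16a7 to 0.30 with Ldhb. By Spearman rho the range was higher, from 0.15 with Pfkm to 0.44 with Ldhb. Sham 2, whose Slc16a1 level of 32.9 CPM stood apart from the other sham libraries, is among the 15 libraries. The relations of Slc16a1 without sham 2 alone were not computed. For the pair of Slc16a1 and Slc16a7 the permutation p was 0.82 (adjusted p = 0.82), rho was 0.18 (permutation p = 0.534, adjusted p = 0.559) and leaving out the 2 farthest gave 0.45. All pairs share each library's depth and scaling. Outside the list, the 3 genes of at least 10 CPM whose deviations were most like those of the 10 genes were Ap2m1, a subunit of the clathrin adaptor, with a mean Pearson r of 0.82 over 15 libraries, Gapdh, a glycolytic enzyme, with 0.81, and Mfn2, a mitochondrial fusion protein, with 0.81.

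**Figure D4:**
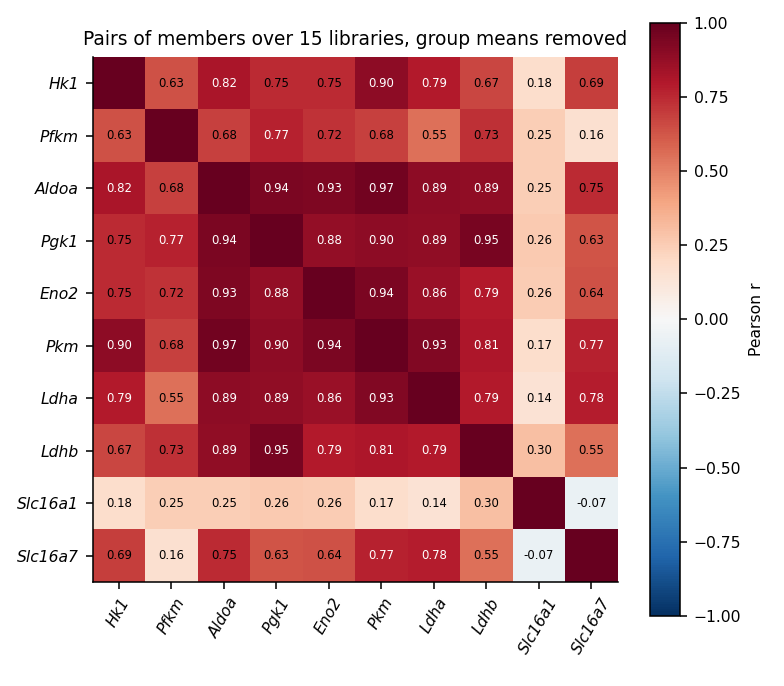
Pearson r for each of 45 pairs of the 10 genes over 15 libraries after group means were removed (colour scale from -1 to 1). Pairs of enzymes have r of 0.55 to 0.97, highest for Aldoa and Pkm, and the row of Slc16a1 runs from -0.07 to 0.30.

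The nuclear RNA level of a library, the mean log2 CPM of the 10 nuclear-retained noncoding RNAs, moved against the enzymes. It was 7.94 ± 0.539 in iTBS, 6.98 ± 0.584 in cTBS and 7.87 ± 0.726 in sham (SD, n = 5 each). Over deviations from group means in 15 libraries, 9 of the 10 genes were correlated with it at an adjusted permutation p under 0.05, all negatively. For Aldoa the Pearson coefficient was -0.90 (p = 2e-05 by permutation, 6.67e-05 when adjusted for 10 relations) and the Spearman coefficient -0.89 (p = 2e-05 by permutation, adjusted 0.0001). Leaving out the 2 farthest libraries gave a Pearson r of -0.82. For Ldhb r was -0.89 (permutation p = 1e-05, adjusted p = 5e-05), rho was -0.92 (permutation p = 1e-05, adjusted p = 0.0001), and leaving out the 2 farthest gave -0.80.

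For Pfkm r was -0.56 (permutation p = 0.0311, adjusted p = 0.0345), rho was -0.48 (permutation p = 0.0768, adjusted p = 0.0853) and leaving out the 2 farthest gave -0.31, so that its relation rests on them. For Slc16a1 r was -0.29 (permutation p = 0.294, adjusted p = 0.294), rho was -0.44 (permutation p = 0.105, adjusted p = 0.105), and leaving out the 2 farthest gave -0.46. A negative relation was common: over 9913 genes of at least 10 CPM the median r was -0.44, and 10.1% had an r under -0.8, as had 60% of the 10 genes.

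Library depth moved with many genes, these among them. Over deviations from group means in 15 libraries, 7 of the 10 were correlated with log2 total counts at an adjusted permutation p under 0.05, with the highest r for Ldha (r = 0.78, permutation p = 2e-05, 0.0002 when adjusted for 10 relations; rho = 0.76, permutation p = 0.0013, adjusted p = 0.013; r = 0.72 without the 2 farthest libraries). Over 9913 genes of at least 10 CPM the median r with depth was 0.31 and 18.6% had an r above 0.6; among the 10 genes the median was 0.62 and 70% lay above 0.6. The count of 7 is by Pearson r. By Spearman rho only Ldha and Pkm (permutation test, adjusted p = 0.0375 for Pkm) were under 0.05. Depth also differed between the groups. All cTBS libraries, at 35545632 total counts or more, were deeper than every iTBS and sham library except iTBS 1 and sham 4. No fit with depth as a covariate was made. The labels name no batch, so no values within batches are given.

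**Figure D5:**
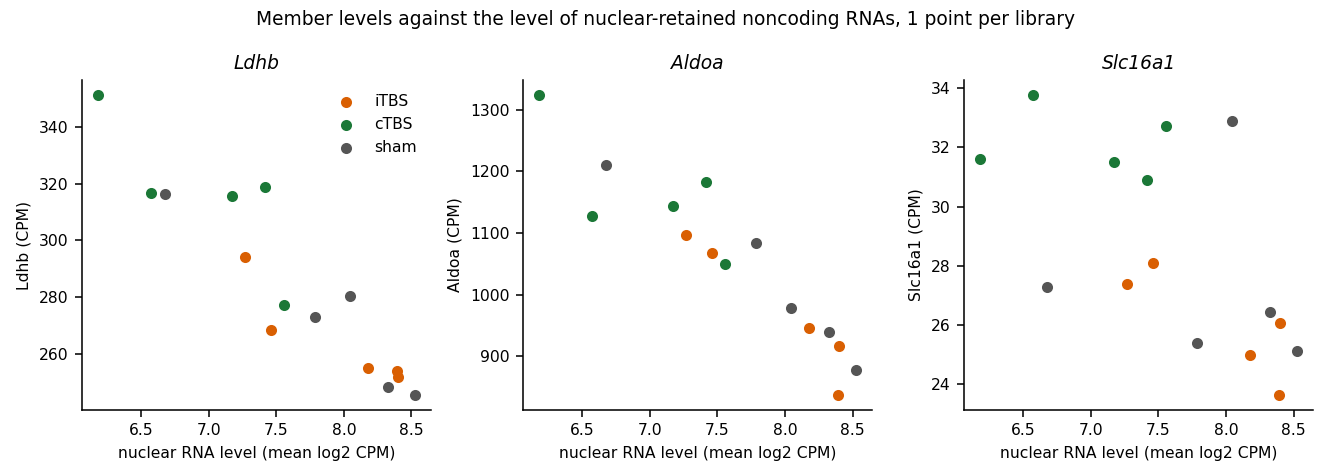
Level of Ldhb, Aldoa and Slc16a1 in CPM (vertical axes, not from 0) against the mean log2 CPM of 10 nuclear-retained noncoding RNAs (horizontal axes), 1 point per library, coloured by group. Ldhb and Aldoa are lower where the nuclear RNA level is higher. Slc16a1 follows that level less closely, with an r of -0.29 and a Spearman rho of -0.44, sham 2 included.

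When the nuclear RNA level was added as a covariate, 7 of the 8 enzymes lay between -0.04 and 0.06 in cTBS against sham. Aldoa was at 0.0006 ± 0.06, Pkm at -0.0045 ± 0.06, Pgk1 at 0.02 ± 0.06, Ldhb at 0.06 ± 0.06, Pfkm at 0.06 ± 0.06, Eno2 at 0.05 ± 0.07 and Ldha at -0.04 ± 0.06, where the fit without it gave 0.12 to 0.21 for these genes. Hk1 moved away from 0, to -0.12 ± 0.06 with the covariate against 0.03 ± 0.08 without it. Slc16a1 kept most of its difference, at 0.18 ± 0.08, and Slc16a7 was at -0.13 ± 0.05 (edgeR, adjusted p = 0.835 for both).

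In iTBS against cTBS with this covariate, Slc16a1 was at -0.25 ± 0.08 and Slc16a7 at 0.16 ± 0.05 (edgeR, adjusted p = 0.533 and 0.546), and the other 8 genes lay between -0.09 and 0.09. These 2 transporters were the only ones of the 10 with an unadjusted p under 0.05 in that fit, in both comparisons that involve cTBS, on a background of 5.9% of tested genes in cTBS against sham and 7.83% in iTBS against cTBS. The 2 comparisons share the cTBS libraries. The nuclear RNA level and the groups were not independent, so the covariate can take up part of a difference between groups or enlarge one. For Slc16a7 it enlarged both differences. Without the covariate Slc16a7 was at -0.05 ± 0.06 in cTBS against sham and at 0.06 ± 0.06 in iTBS against cTBS. Neither then had an unadjusted p under 0.05 by edgeR.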

How the data were processed

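Cortex RNA of 15 mice was sequenced after ribosomal RNA depletion with a stranded total RNA kit, per the labels' protocols. The authors deposited raw counts per Ensembl gene and variance-stabilized values, which are on a log2 scale. The tools named, per the submitters' processing notes, are fastp, STAR and DESeq2, and the build is GRCm39 (mm39). Read counter, annotation release and strand setting: not given in the sources used here. Several of these genes have processed pseudogenes or close paralogs (Pgk1, Gapdh, Eno1 and Eno1b among them), and how shared reads were counted is likewise not given. Symbols came by identifier from GENCODE M21, which named 52073 of 56748 rows and matched all 134 list symbols.

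Differences were tested with edgeR 4.0.16 (R 4.3.3, limma 3.58.1 and DESeq2 1.42.0 for alternatives) on the raw counts of all 15 libraries: quasi-likelihood F test, 1 term per group, TMM scaling, default expression filter by group (22998 genes kept), Benjamini-Hochberg adjustment over these genes and a threshold of 0.05. The code was tested on simulated data. Standard errors are fold changes over the root of the F statistic. Levels are CPM over tested genes with TMM scaling (log2 with a prior count of 0.5), and relations were tested with 100000 permutations. Total counts per library are given above. The 10 genes, the pathway lists and the tests were chosen with earlier results of these data known. Outside the 10 genes, the text names the gene with the smallest p of each pathway list in each comparison and the 3 genes most like the 10. Alternatives were other scalings, tools and filters, covariates, a replicate block and libraries left out.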

Additional observations from a re-analysis of the deposited data

Results flagged for a closer look

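Slc16a1 in sham 2 stood at 32.9 CPM, with the next sham library at 27.3 CPM; the gap was 0.724 of the group's range, above the critical value of 0.71 for 5 samples. It was the only such case among 30 combinations of gene and group, where chance gives about 1 in 20. Sham 2 alone also stood apart in thalamic neuron markers, at 4.77 on the mean log2 CPM scale, against 2.91 to 3.25 in the other 14 libraries, and it had 234 CPM of Ttr. The part of either in the Slc16a1 value was not tested.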

How the results depend on the processing

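Of 780 fold changes of the 10 genes under 26 alternatives, 727 kept their direction and side of the threshold, 31 changed sign and 22 became called. DESeq2 called 132 genes in cTBS against sham, and 2618 genes and 3 of the 10 in iTBS against cTBS. Replicate numbers in the titles are not stated to pair animals, and same-numbered libraries correlated at -0.678 to 0.795, with 3 of 15 pairs closest to their own number; with the replicate block 5 genes were called in iTBS against cTBS, none of the 10 and 0 in the other comparisons. Leaving out 1 library gave 0 to 5726 genes and 0 to 7 of the 10 in cTBS against sham, and 0 to 4474 genes and 0 to 5 of the 10 in iTBS against cTBS. The gene numbers were highest without sham 4 and without iTBS 1. The cause was not tested.

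In iTBS against sham, Pfkm was at 0.011 with upper quartile scaling and Eno2 at -0.0046 with the striatal marker level as a covariate. There, leaving out 1 library gave -0.103 to 0.0307 for Hk1, -0.033 to 0.0355 for Pfkm, -0.115 to 0.0198 for Aldoa, -0.107 to 0.00537 for Pgk1, -0.0405 to 0.0717 for Eno2, -0.0767 to 0.0414 for Pkm, -0.0876 to 0.03 for Ldhb and -0.0117 to 0.0575 for Slc16a7. In cTBS against sham, Slc16a7 was at 0.0017 with limma-trend on the deposited values, at 0.014 without a filter and at -0.0724 to 0.0307 with 1 library left out. Adding the nuclear RNA level as covariate put Hk1 at -0.122, Pkm at -0.0045 and Ldha at -0.0433 in cTBS against sham, and Hk1 at 0.091 in iTBS against cTBS. Slc16a7 was at -0.000335 to 0.0831 in iTBS against cTBS with 1 library left out. Without sham 2, sham 5 and cTBS 4, 0 of the 10 were called in any comparison.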
